A study of Rattus norvegicus with 6 samples.

Results

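Meiosis begins with deliberate double-strand breaks in the DNA, which are repaired on the homologous chromosome while cohesin rings hold the sister chromatids together. The 10 genes described here encode parts of both systems: Dmc1, Mnd1 and Psmc3ip for strand invasion, Hfm1, Msh4, Msh5 and Mlh3 for the making of crossovers, and Rec8, Smc1b and Stag3 for the cohesin ring of meiotic cells. They were taken by name, and 10 of 10 are listed among the 21170 genes of the deposited tables. The tables hold single-cell expression from testis of SD rats, an outbred laboratory stock, for 3 untreated control animals and 3 animals of a stress model built on a terrifying sound. The labels give no age, duration of exposure or other treatment, and no further manipulation that the groups share. Each animal gave 1 library, and the p-values below measure the spread between these 3 and 3 libraries.

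The control libraries held 2342, 1801 and 2453 cells and the stressed libraries 409, 2506 and 2233 cells, with 16756543 total counts in stressed replicate 1 and 73650164 to 114984746 in the other libraries. Whether reads or molecules were counted is not stated, so intervals below cover counting error only. Clusters are called after the marker genes they carry, with "-like" added. There were 1376 spermatocyte-like cells, 3937 that were round spermatid-like and 6238 that were elongating spermatid-like, and 193 cells stayed unnamed, of which 163 came from stressed replicate 1. No cluster met the rule for spermatogonia or for a somatic cell type of the testis. Stressed replicate 1 stood apart: its 26 spermatocyte-like cells held 1736 CPM (counts per 1000000 counts of the summed cells) of 9 stromal markers together, against 5.08 to 45.5 CPM in the other libraries, and 665 CPM of 13 macrophage markers, against 47.9 to 85.9 CPM. Libraries shared at most 1 cell barcode.

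The spermatocyte-like cells were divided further, with the 10 genes kept out of the genes that set the clusters. A group of 95 early meiotic-like cells was led by Dazl, an RNA-binding protein of germ cells entering meiosis. It was followed by 218 pachytene-like cells and 1002 late meiotic-like cells, and 61 cells led by Prm2 and Tnp1, which package the DNA of spermatids, stayed unnamed. None of these sub-clusters had a marker of the general spermatocyte list among its 10 leading genes, and the names rest on the mean level of the early, pachytene and late marker lists. The late name was the weakest: it joins 5 sub-clusters that different libraries filled, and in 1 of them the late markers were below the mean of the spermatocyte-like cells. Of the spermatocyte-like cells, early cells made up 6.24%, 18.5% and 0.893% in the controls (replicates 1, 2 and 3, the order used throughout) and 15.4%, 10% and 1.37% in the stressed animals. The stromal markers of stressed replicate 1 lay mostly in its 4 early cells, at 7857 CPM. Its 6 pachytene-like cells held 91.4 CPM of them and its 14 late cells 22.0 CPM. For the macrophage markers these values were 2497, 335 and 61.2 CPM. Round spermatid-like clusters 6, 0 and 3 and elongating spermatid-like clusters 7, 9, 2, 8, 4 and 1 were put in order by their summed level of elongating spermatid markers, which ran from 14640 CPM in cluster 6 to 177900 CPM in cluster 1. Levels are in CPM, which does not correct for the length of a gene, so they are compared within a gene and not between genes.

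Promoter sequences from RefSeq on build GRCr8 matched 8 of the 10 genes; Msh4 and Msh5 had no entry. The windows of the 4 genes that were detected from spermatocytes into spermatids are shown because these are the genes whose course through meiosis can be compared best. Each covers 150 bases before and 30 bases from the start of the gene, 5′ to 3′ on the strand of the gene, and capitals mark a match to TTCCCGC, a motif of E2F factors, on either strand.
Psmc3ip, chr10:86527637-86527816, minus strand: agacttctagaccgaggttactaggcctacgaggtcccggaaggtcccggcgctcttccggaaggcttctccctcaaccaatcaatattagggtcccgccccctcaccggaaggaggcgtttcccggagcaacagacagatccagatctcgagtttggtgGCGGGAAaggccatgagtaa
Rec8, chr15:33079668-33079847, plus strand: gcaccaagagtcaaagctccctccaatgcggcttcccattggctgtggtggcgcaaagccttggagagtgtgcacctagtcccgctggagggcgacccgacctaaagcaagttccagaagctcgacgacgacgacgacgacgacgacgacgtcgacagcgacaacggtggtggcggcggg
Smc1b, chr7:118122619-118122798, minus strand: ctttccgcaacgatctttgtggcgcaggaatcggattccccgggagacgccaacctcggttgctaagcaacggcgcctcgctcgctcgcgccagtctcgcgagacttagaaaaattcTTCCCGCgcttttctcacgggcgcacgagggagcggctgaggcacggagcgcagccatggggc
Stag3, chr12:22398258-22398437, plus strand: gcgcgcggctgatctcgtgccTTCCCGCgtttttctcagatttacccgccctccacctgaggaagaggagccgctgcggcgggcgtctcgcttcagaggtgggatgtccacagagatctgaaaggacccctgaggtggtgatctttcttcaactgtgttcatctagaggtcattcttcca
The E2F motif was present in 3 of 8 windows of 300 bases, those of Psmc3ip, Smc1b and Stag3, against 4.47% of 27456 rat promoters of the same length. The motif CNCCTCAG of STRA8, a regulator of meiotic entry, was in 2 of 8 (Hfm1 and Stag3) against 8.82%, GTTGCC of RFX factors in 1 of 8 (Mlh3) against 12.18%, and GGGCGG of Sp and KLF factors in 3 of 8 against 34.89%. The motifs TGACGTCA and TGACGT of CREB and CREM, AACNGTC and AACCGT of MYB factors, and CACGTG of E-box factors were in 0 of 8, against 1.91%, 8.22%, 8.29%, 3.86% and 6.65%. All motifs were searched on both strands, and the longer CREM motif holds the shorter one. The 300-base window of Smc1b held 30 CpG dinucleotides and that of Rec8 25, against a median of 7 over all promoters. A match describes letters only, and so does its absence.

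The 3 strand invasion genes had 3 different profiles. Dmc1, the recombinase of meiosis, was sparse, with 332 counts in 106 of all cells. Its level in early cells was 10.8, 8.50 and 4.42 CPM in control replicates 1 and 2 and stressed replicate 2, the libraries with at least 20 such cells. A count of Dmc1 was found in 13 of 95 early cells (13.7%, Wilson 95% interval 8.18 to 22.0) and in 1 of 218 pachytene-like cells. A second, lower level stood in round spermatid-like clusters 3 (2.28 ± 2.19 CPM, SD, n = 6) and 0 (2.22 ± 2.09 CPM, SD, n = 6), where libraries ran from 0 to 5.26 CPM. The early value of stressed replicate 2 came from 1 cell and lay within this range. Since round cells are more numerous, 66.9% of all Dmc1 counts lay in round spermatid-like cells and 8.43% in early ones.

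Mnd1, which forms a dimer with the product of Psmc3ip that stimulates strand exchange by Dmc1, was the most sharply bounded of the 3. Early cells held 77.6, 51.0 and 22.1 CPM in the same 3 libraries. Pachytene-like cells held 1.12 ± 1.26 CPM (SD, n = 4) and late cells 3.54 ± 2.50 CPM (SD, n = 5), so every early value lay above every later one. Early cells gave 44.4% of all Mnd1 counts although they are 95 of 11744 cells. A count was found in 28 of 95 early cells (29.5%, 21.3 to 39.3).

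Psmc3ip was detected throughout. It stood at 358 ± 63.3 CPM (SD, n = 3) in early cells, 151 ± 32.7 CPM (SD, n = 4) in pachytene-like cells, 377 ± 96.3 CPM (SD, n = 5) in late cells and 396 ± 67.5 CPM (SD, n = 5) in cluster 6, the youngest round cells. It was lower along the later spermatid clusters, down to 16 ± 5.71 CPM (SD, n = 5) in cluster 1. The early, late and cluster 6 levels overlapped between libraries, and the lowest early library (286 CPM) lay above the highest of cluster 0 (259 CPM). Its gene overlaps Mlx in the RefSeq annotation and the use of strand in counting is not given in the sources used here, but Mlx reached at most 11.7 CPM, in late cells.

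The 4 crossover genes were highest in the early cells. Mlh3, part of the nuclease that resolves crossover intermediates, lasted longest. It stood at 146, 171 and 89.9 CPM in early cells of control replicates 1 and 2 and stressed replicate 2. In pachytene-like cells it was 40.5, 44.9, 70.3 and 25.5 CPM in control replicates 1 and 2 and stressed replicates 2 and 3, and in late cells 3.69 ± 2.80 CPM (SD, n = 5). These 3 levels did not overlap between libraries. A count of Mlh3 was found in 53 of 95 early cells (55.8%, 45.8 to 65.4), in 64 of 218 pachytene-like cells (29.4%, 23.7 to 35.7) and in 5.19% of late cells.

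Msh4 and Msh5, whose products form the clamp that holds recombination intermediates, were the sparsest of the 10, with 216 and 190 counts in all. Msh5 stood at 7.86, 17 and 30.9 CPM in early cells of the same 3 libraries and at 0.82 ± 0.84 CPM (SD, n = 5) in late cells, with no overlap. Msh4 stood at 4.91, 15.1 and 8.84 CPM in early cells, and its pachytene-like values ran from 0 to 10.9 CPM, so these stages overlapped. Msh4 overlaps Asb17 in the annotation. Asb17, at 876 CPM in cluster 7 and at 0 in early cells, had a different profile from Msh4, which stood at 0.52 ± 0.83 CPM (SD, n = 6) in cluster 7.

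Hfm1, the DNA helicase that extends the invading strand for crossovers, had 2 separate peaks. The first was in early cells, at 82.5, 78.4 and 38.3 CPM in control replicates 1 and 2 and stressed replicate 2, with a count in 38 of 95 cells (40%, 30.7 to 50.1). Pachytene-like, late and round spermatid-like cells followed at 0.30 to 1.64 CPM on average. The second was at the change from round to elongating cells, at 13.3 ± 11.1 CPM (SD, n = 6) in cluster 7 and 5.88 ± 5.69 CPM (SD, n = 5) in cluster 9. These means join both groups. In cluster 7 controls held 3.18, 6.92 and 0.30 CPM and stressed animals 20.1, 25.5 and 23.9 CPM. Control replicate 3 was no higher in cluster 7 than in cluster 9 (1.22 CPM). The second peak of the means is thus mainly that of the stressed libraries. A count was found in 104 of 892 cells of cluster 7 (11.7%, 9.72 to 13.9) but in 2 of 1499 cells of cluster 1 (0.133%, 0.0366 to 0.485), the background for this gene in late spermatids. Elongating spermatid-like cells held 68.9% of its counts. Hfm1 overlaps 2 unnamed genes in the annotation, and counts of theirs cannot be told apart here. Stag3, Msh4 and Msh5 each overlap an unnamed gene too, with the same limit.

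**Figure D1:**
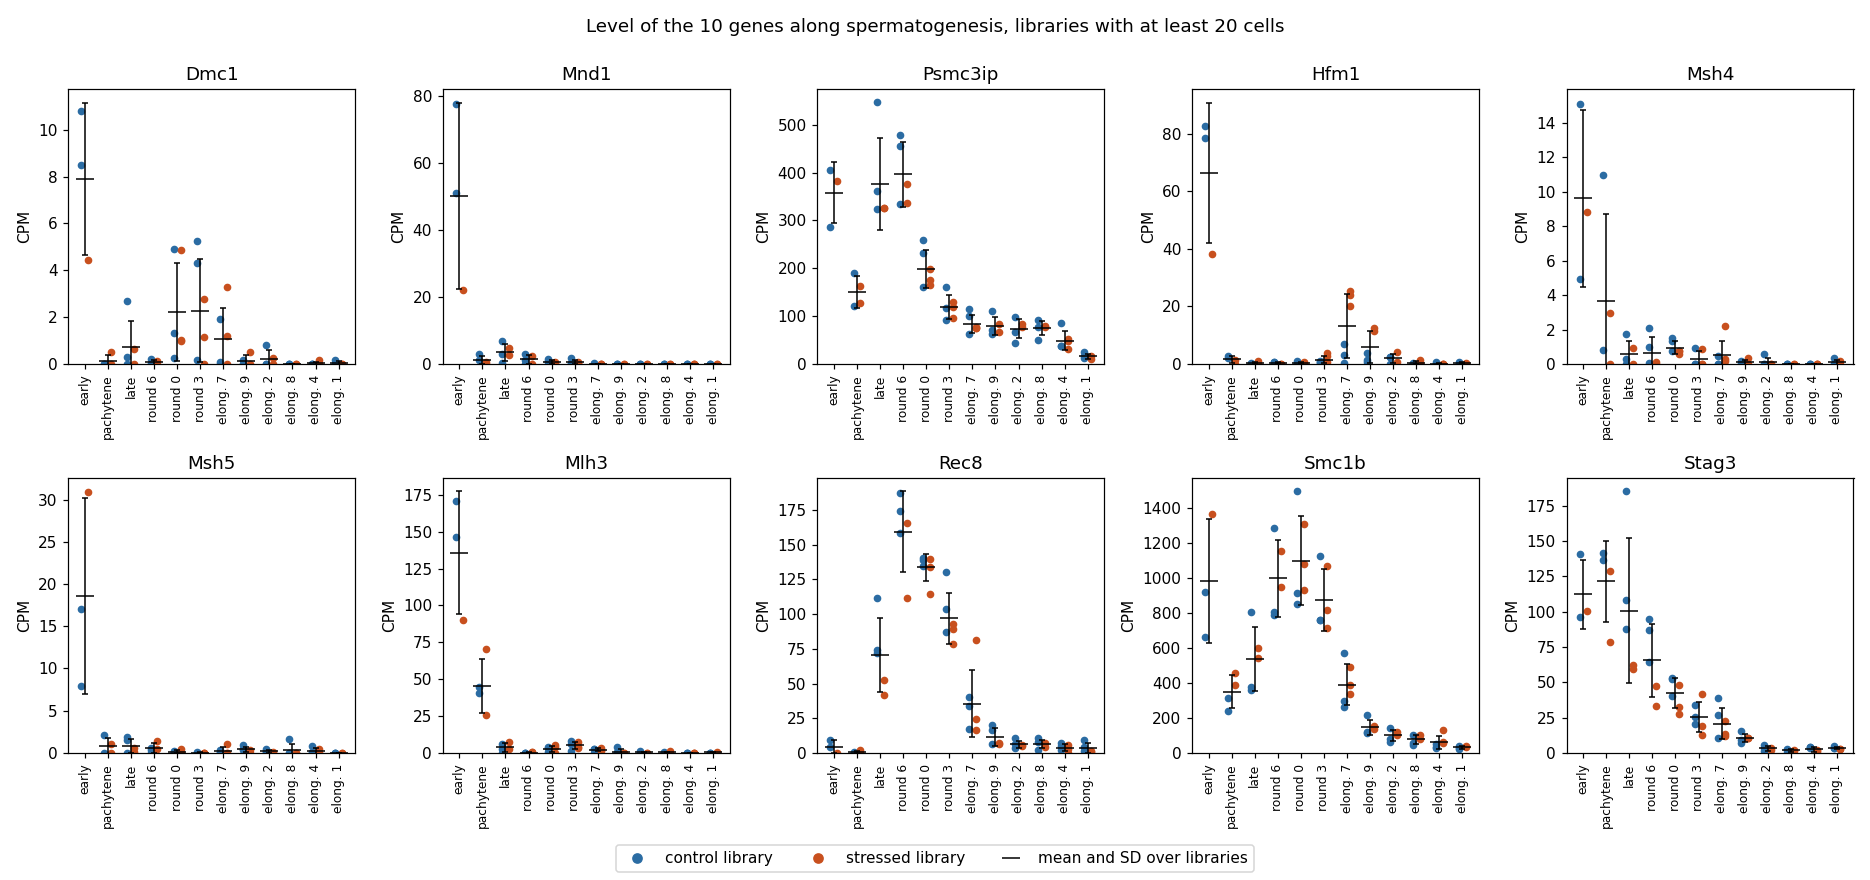
Level of each gene in CPM (vertical axes from 0) along 12 stages and clusters in order of progress; dots are libraries with at least 20 cells, and the line and bar are their mean and SD. Mnd1, Msh5 and Mlh3 stand out at the left in early cells, Hfm1 shows a second rise in cluster 7, mainly in stressed libraries, and Rec8 and Smc1b peak in round spermatid-like clusters 6 and 0.

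The cohesin genes behaved differently from the crossover genes and from each other. Rec8, the cleavable subunit that closes the ring around sister chromatids in meiosis, was near 0 in early cells, at 3.93, 9.44 and 0 CPM in the same 3 libraries, with a count in 2 of 95 cells (2.11%, 0.579 to 7.35). It was lower still in pachytene-like cells, at 0.73 ± 0.81 CPM (SD, n = 4). It stood at 70.5 ± 26.7 CPM (SD, n = 5) in late cells, 160 ± 29.0 CPM (SD, n = 5) in cluster 6, 134 ± 9.78 CPM (SD, n = 6) in cluster 0 and 97.1 ± 18.4 CPM (SD, n = 6) in cluster 3, and 3.42 ± 3.53 CPM (SD, n = 5) in cluster 1. The lowest late library (41.7 CPM) was above the highest early library. Round spermatid-like cells held 81.8% of all Rec8 counts. The level in round spermatid-like cells exceeded that in spermatocyte-like cells in 6 of 6 libraries, by 0.56 to 2.81 on the log2 scale, a geometric mean of 3.04-fold.

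Smc1b, the meiotic form of the coiled-coil arm of the ring, was high at both ends of this interval. It stood at 919, 664 and 1364 CPM in early cells of control replicates 1 and 2 and stressed replicate 2, at 349 ± 94.4 CPM (SD, n = 4) in pachytene-like cells and at 536 ± 184 CPM (SD, n = 5) in late cells. Its mean was highest in cluster 0, at 1098 ± 255 CPM (SD, n = 6), where 98.2% of cells had a count. Clusters 0, 6 and 3 and the early cells overlapped between libraries, while the 4 pachytene-like libraries with at least 20 cells (238 to 455 CPM) lay below the 3 early ones. The 12 and 6 pachytene-like cells of control replicate 3 and stressed replicate 1 held more, 728 and 563 CPM. Round spermatid-like cells were above spermatocyte-like cells in 6 of 6 libraries, by 0.93 ± 0.15 (SD, n = 6) on the log2 scale. Ribc2 begins within 1 kb of Smc1b and ran from 455 CPM in early cells through 1255 CPM in late cells to 1378 CPM in cluster 6 and 39.0 CPM in cluster 1, all cells pooled. Thus both neighbours were high in round spermatid-like cells, and Ribc2 had no minimum in pachytene-like cells, at 744 CPM.

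Stag3, the meiotic subunit that docks on the kleisin of the ring, followed another course. It was level through meiosis, at 112 ± 24.5 CPM (SD, n = 3) in early, 121 ± 28.9 CPM (SD, n = 4) in pachytene-like and 100.5 ± 51.3 CPM (SD, n = 5) in late cells, and these overlapped between libraries. It was lower in spermatids, at 65.4 ± 25.9 CPM (SD, n = 5) in cluster 6 and 3.44 ± 0.82 CPM (SD, n = 5) in cluster 1. Round spermatid-like cells lay below spermatocyte-like cells in 6 of 6 libraries, by a log2 ratio of -1.18 ± 0.27 (SD, n = 6), opposite in direction to Rec8 and Smc1b.

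**Figure D2:**
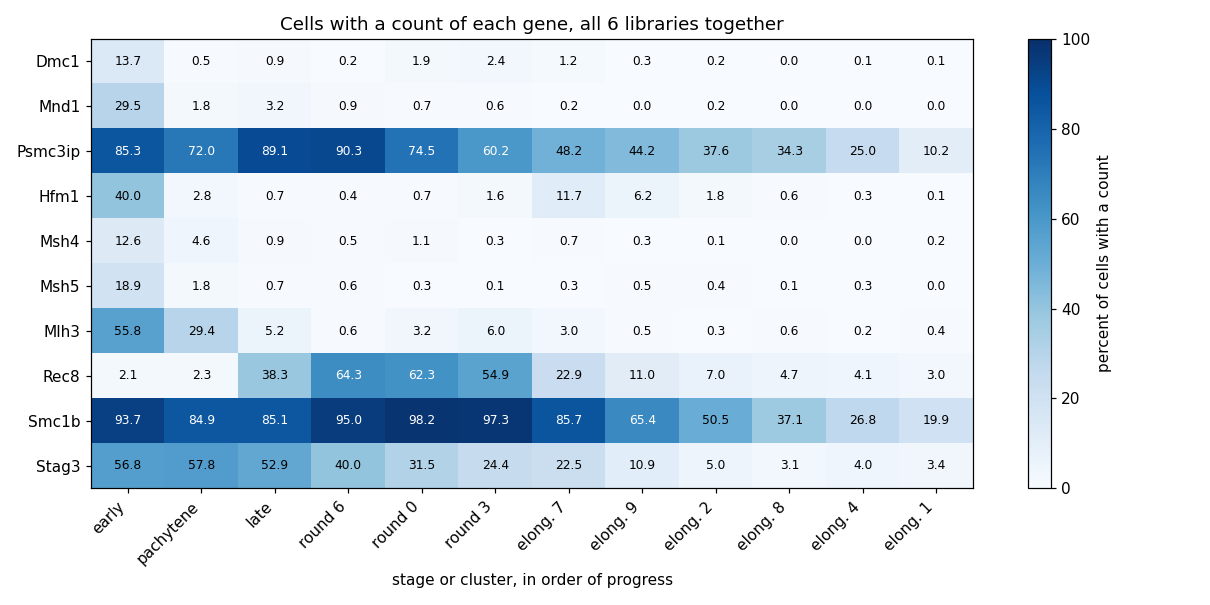
Percent of cells with at least 1 count of each gene (colour from 0 to 100 and printed values) in the 12 stages and clusters, with all 6 libraries together. Psmc3ip and Smc1b are found in most spermatocyte-like and round cells. The share of cells with Dmc1, Mnd1, Hfm1, Msh4, Msh5 and Mlh3 is largest in the first column.

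The 6 sparse genes were also counted together, with no comparison with chance. At least 1 of Dmc1, Mnd1, Hfm1, Msh4, Msh5 and Mlh3 had a count in 78 of 95 early cells (82.1%), and at least 2 of them in 51. Among pachytene-like cells these numbers were 76 and 12 of 218, and among late cells 109 and 7 of 1002. The median depth was 29250 counts per cell in early, 34340 in pachytene-like and 32640 in late cells, and the median number of genes per cell was 3109, 2759 and 2599. The part of either in these counts was not tested. Across 18 clusters, Pearson's r was 0.89 between Mnd1 and Msh5, 0.88 between Mnd1 and Msh4, 0.87 between Smc1b and Psmc3ip and -0.25 between Hfm1 and Rec8. These values describe clusters that share libraries.

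The mitotic relatives of the meiotic subunits had their own courses. All cells pooled, Rad21, the mitotic counterpart of Rec8, stood at 26.8 CPM in early cells and at 1.6 to 9.6 CPM in the late cells and in the round clusters, while Rec8 did the reverse. The early mean of Rad21 over libraries with at least 20 cells was lower, at 18.3 ± 8.80 CPM (SD, n = 3). Stag1, a counterpart of Stag3, went from 212 CPM in early to 37.4 CPM in late cells, all cells pooled, over which Stag3 was level. Smc1a, the counterpart of Smc1b, stood at 23.9 CPM in early, 0.9 CPM in pachytene-like and 11.4 CPM in late cells, all cells pooled. Over libraries with at least 20 cells its means were 8.54 ± 3.14 (SD, n = 3), 0.46 ± 0.92 (SD, n = 4) and 13.1 ± 4.64 CPM (SD, n = 5). By these means its early level was not above its late level. Smc1b too was lower in pachytene-like than in early and late cells on average, though its lowest levels came in the last spermatid clusters. Smc3, the partner of both, stood at 124 CPM in early, 19.8 CPM in pachytene-like and 359 CPM in cluster 0 cells, all cells pooled. From spermatocyte-like to round spermatid-like cells, the log2 ratio of Smc1b to Smc1a shifted by -0.41 ± 0.75 and that of Rec8 to Rad21 by 0.42 ± 3.70 (both SD, n = 6), within the spread between libraries.

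Of the 104 other genes of the pathways 103 had a count, and their highest level, all cells pooled, was in early cells for 59, in pachytene-like cells for 16, in late cells for 9, in round clusters for 14 and in elongating clusters for 5. By list, early cells were highest for 15 of 23 genes of break formation and resection, 20 of 29 of strand invasion, 12 of 22 of crossover formation and 12 of 29 of cohesin and its regulators. How many of all genes were highest in early cells was not counted, so these numbers are not read as a trait of the pathways. The pooled early level also holds cells of libraries with fewer than 20 early cells. Among these are the 4 early cells of stressed replicate 1 that carried the stromal and macrophage markers. The examples that follow were chosen after their values were seen. Hormad1, which marks unsynapsed axes, went from 1480 CPM in early to 109 CPM in late cells. Rec114, a factor for breaks, went from 119 to 35.5 CPM, Meiob from 41.7 to 4.4 CPM, Spata22, its partner on single-stranded DNA, from 55.9 to 7.1 CPM, and Ccnb1ip1, a crossover factor, from 37.5 to 0.1 CPM. Sgo2, which guards centromeric cohesin, was instead highest in pachytene-like cells, at 254 CPM. Spo11, the enzyme that makes the breaks, stood at 43.9 CPM in early and 46.2 CPM in pachytene-like cells, and Rnf212, a crossover factor, at 14.2 CPM in early cells and 29.9 CPM in cluster 3. The genes most like the strand invasion group over the 18 clusters were Atp5mf (Pearson's r 0.97), Pias1, Fcf1, Ndufa6 and Psmc2, those most like the crossover group Hnrnpul2 (0.96), mrpl9, Kansl2, Arf5 and Macroh2a1, and among named genes those most like the cohesin group Efcab2 (0.97), Klhl7 and Ift27. Rec8 alone was most like Upf3b (0.98), Stag3 most like Arl3 (0.99) and Mlh3 most like Tdrd1 (0.96), a piRNA pathway factor.

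Stressed and control animals were then compared within the 3 classes and over whole libraries, on counts summed per library, with edgeR's quasi-likelihood test and Benjamini-Hochberg adjustment over all genes tested. None of the 10 genes passed an adjusted p of 0.05 in any of them. In spermatocyte-like cells 9 of the 10 genes passed the filter on low counts, all but Dmc1, and 3 were higher and 6 lower with a median log2 change of -0.33, against 0.00 over 10194 genes tested. Of those 10194 genes 0% were called. In round spermatid-like cells 9 passed, all but Msh5, with 3 higher, 6 lower and a median of -0.33, and 0.0165% of 12137 genes were called. In elongating spermatid-like cells 7 passed, all but Dmc1, Msh4 and Mnd1, with 3 higher, 4 lower and a median of -0.22, and 0.00908% of 11018 genes were called. In whole libraries all 10 passed, with 3 higher, 7 lower and a median of -0.23, and 0.00689% of 14519 genes were called. The adjusted p of the members in these 4 fits was 1.00. An unadjusted p under 0.05 was found for 1 of the members in spermatocyte-like cells (Rec8), 0 in round and 1 in elongating spermatid-like cells (Hfm1), and 1 in whole libraries (Stag3), against 1.83%, 2.59%, 1.72% and 1.38% of all genes tested. DESeq2 called 3 genes in spermatocyte-like cells, where edgeR called 0 and had 187 at an unadjusted p under 0.05; none was a member. Simulated 4-fold changes in 200 genes were recovered for 87.0%, 90.5%, 84.5% and 86.5% in the same 4 fits. The simulated counts gave every gene the same relative spread between libraries. These shares therefore do not tell how often such a change would be found in the sparse members.

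How often the libraries of the groups did not overlap is read against all genes tested in the same class. In spermatocyte-like cells this held for 0 members with stressed higher (1.84% of genes) and 1 with stressed lower, Rec8 (6.37%). In round spermatid-like cells it held for 0 higher (2.31%) and 1 lower, Mnd1 (6.08%), at 1.25, 0.95 and 0.73 CPM in controls and 0.31, 0.48 and 0.72 CPM in stressed animals. In elongating spermatid-like cells it held for 1 higher, Hfm1 (2.21%), and 0 lower (3.98%), and in whole libraries for 0 higher (1.23%) and 1 lower, Stag3 (4.33%).

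Fits within the meiotic sub-stages and within single spermatid clusters were added after the data were seen. In late meiotic-like cells, 3 control against 2 stressed libraries, 0% of 9356 genes were called (241 had an unadjusted p under 0.05, and DESeq2 called 4), and in pachytene-like cells, 2 against 2, 0.0147% of 6799. No member was called. Groups did not overlap for 0 members higher (6.46%) and 2 lower, Stag3 and Rec8 (11.9%), in late cells. In pachytene-like cells this held for 1 higher, Smc1b (12.7%), and 1 lower, Stag3 (23.5%). Control replicate 3, left out there for its few cells, had a Smc1b level above every stressed library. An unadjusted p under 0.05 was found for Stag3 in late cells (2.58% of genes) and for Smc1b in pachytene-like cells (5.85%).

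Fits within all 11 single clusters of the 3 classes called no member. Clusters 1, 4, 5, 6, 7, 9 and 10 called 0% of genes each, and clusters 0, 2, 3 and 8 together 0.00599%. Among spermatocyte-like clusters, groups did not overlap in cluster 5 for 0 members higher (6.84%) and 2 lower, Stag3 and Rec8 (11.4%), and in cluster 10, 2 against 2 libraries, for 0 higher (9.64%) and 3 lower, Hfm1, Mnd1 and Stag3 (24.8%). In round cluster 6 this held for 0 higher (7.78%) and 1 lower, Stag3 (11.9%). Among elongating clusters it held in cluster 7 for 1 higher, Hfm1 (2.88%), and 0 lower (4.44%), and in cluster 9 for 1 higher, Hfm1 (7.22%), and 0 lower (10.8%). In cluster 4 it held for 1 higher, Smc1b (1.97%), and 1 lower, Stag3 (5.96%), and in cluster 1 for 0 higher (7.94%) and 2 lower, Rec8 and Stag3 (9.26%). In clusters 0, 2, 3 and 8 it held for 0 higher (4.29%) and 0 lower (7.27%). An unadjusted p under 0.05 was found for Stag3 in clusters 5 (3.3% of genes) and 6 (4.14%), Hfm1 in clusters 7 (2.5%) and 9 (2.51%), Hfm1 and Mnd1 in cluster 10 (3.21%), Smc1b in cluster 4 (2.03%), Rec8 in cluster 1 (2.66%), and 0 members in clusters 0, 2, 3 and 8 (2.25%). Hfm1 in spermatocyte-like cluster 10 stood at 16.1 and 41.8 CPM in control replicates 1 and 2 and 8.63 and 3.52 CPM in stressed replicates 2 and 3 (log2 change -2.02, SE 0.80, edgeR adjusted p = 0.99). These 4 libraries had 29, 33, 23 and 5 early cells among their spermatocyte-like cells. Hfm1 and Mnd1 were highest in early cells, and the part of these numbers in the cluster 10 differences was not tested.

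**Figure D3:**
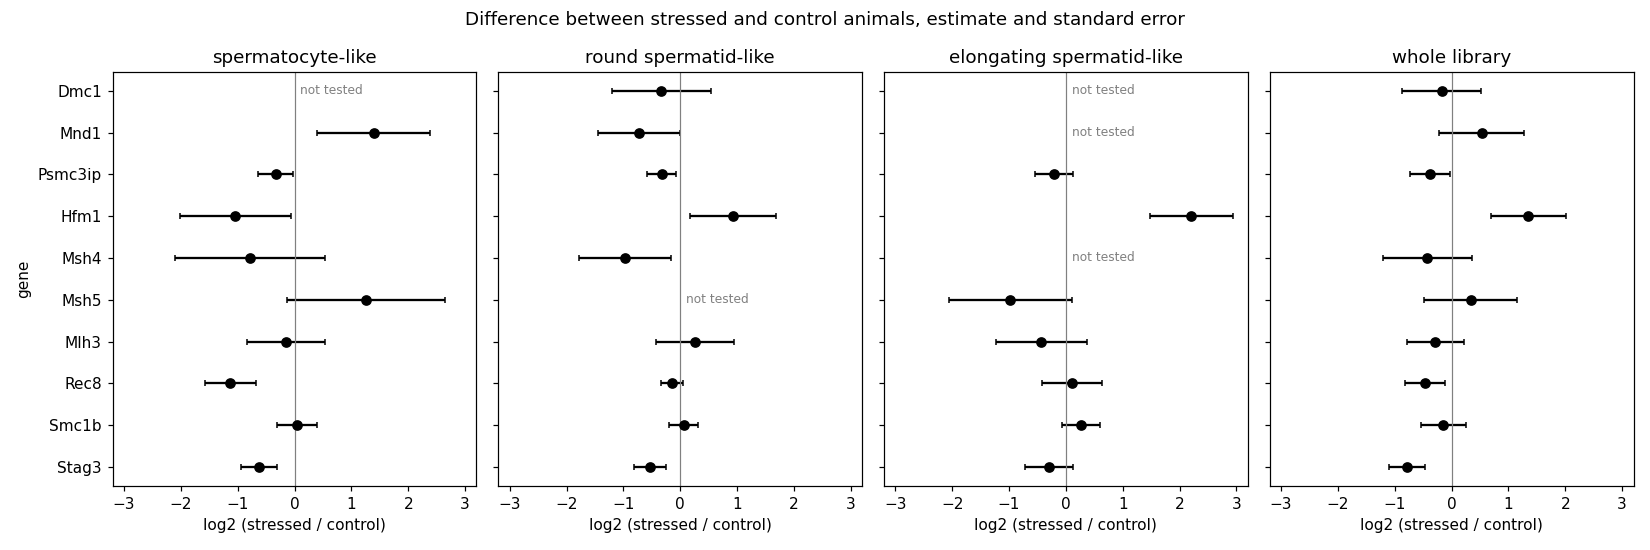
Log2 ratio of stressed to control (horizontal axes) for each gene in the 3 classes and in whole libraries; points are edgeR estimates and bars their standard errors, and genes under the filter on low counts are marked as not tested. Hfm1 in elongating spermatid-like cells, at 2.20, lies farthest from 0, and Stag3 lies below 0 in all 4 panels.

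Hfm1 gave the largest difference of the 10 over the 3 classes and whole libraries. In elongating spermatid-like cells it stood at 1.19, 2.58 and 0.24 CPM in controls and at 6.85, 7.79 and 4.21 CPM in stressed animals. The groups did not overlap. The log2 change was 2.20 (SE 0.73, unadjusted p = 0.0121, edgeR adjusted p = 1.00). It was higher in stressed animals within single clusters too. In cluster 7 the values were 3.18, 6.92 and 0.30 CPM in controls and 20.1, 25.5 and 23.9 CPM in stressed animals (log2 change 2.75, SE 0.81, edgeR adjusted p = 1.00). In cluster 9, without stressed replicate 1, which had 8 such cells, they were 0.58, 3.66 and 1.22 CPM against 11.5 and 12.4 CPM (log2 change 2.76, SE 0.80, edgeR adjusted p = 1.00). In both clusters every stressed library lay above every control library.

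The share of cells with an Hfm1 count in cluster 7 was 8 of 129 (6.20%, Wilson 95% interval 3.18 to 11.8), 23 of 209 (11%, 7.45 to 16.0) and 2 of 174 (1.15%, 0.316 to 4.09) in controls. In stressed animals it was 8 of 45 (17.8%, 9.29 to 31.3), 48 of 248 (19.4%, 14.9 to 24.7) and 15 of 87 (17.2%, 10.7 to 26.5). With each cell thinned to 10000 counts, which left out no cell, these shares were 2.33%, 4.78% and 0.575% against 6.67%, 12.1% and 10.3%, so the groups stayed apart. Over all elongating spermatid-like cells the unthinned shares overlapped, since control replicate 2 (3.45%) lay above stressed replicate 3 (2.91%). The counts behind these values are few: control replicate 3 had 12 Hfm1 counts in elongating spermatid-like cells, and 37 counts of stressed replicate 1 came from 8 cells, 37.8% of them from 1 cell. In spermatocyte-like cells Hfm1 went the other way without passing the test, at 5.41, 14.6 and 1.45 CPM in controls and 5.41, 4.09 and 0.87 CPM in stressed animals (log2 change -1.04, SE 0.98). Those values move with the share of early cells given above, and its part in them was not tested.

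Stag3 was lower in stressed animals in every class at its point estimate. In spermatocyte-like cells it stood at 168, 110 and 83.4 CPM in controls and at 88.8, 66.2 and 66.8 CPM in stressed animals, and the groups overlapped by stressed replicate 1. The log2 change was -0.63 (SE 0.32, edgeR adjusted p = 1.00). In round spermatid-like cells it was 59.7, 51.4 and 42.3 CPM against 47.2, 22.6 and 32.2 CPM (log2 change -0.53, SE 0.28, edgeR adjusted p = 1.00). In late meiotic-like cells it was 185, 108 and 87.7 CPM against 59.4 and 62.0 CPM, with a log2 change of -0.96 (SE 0.35, unadjusted p = 0.0181, edgeR adjusted p = 1.00). There the groups did not overlap. Without control replicate 1 this change was -0.63, with an unadjusted p of 0.0962. In cluster 6 it was 94.6, 87.2 and 64.2 CPM against 33.5 and 47.3 CPM (log2 change -0.94, SE 0.30, edgeR adjusted p = 1.00).

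Of the 3 classes, Rec8 gave its lowest estimate in spermatocyte-like cells. It stood at 55.7, 48.8 and 97.2 CPM in controls and at 17.3, 31.8 and 37.0 CPM in stressed animals, with no overlap. The log2 change was -1.13 (SE 0.45, unadjusted p = 0.0300, edgeR adjusted p = 1.00), and -0.68 without control replicate 3. In round spermatid-like cells, where it was highest, it was 149, 122 and 143 CPM against 121, 100.5 and 133 CPM (log2 change -0.15, SE 0.20). Rec8 is near 0 in early and pachytene-like cells. Pachytene-like cells made up 18.5%, 14.6% and 10.7% of spermatocyte-like cells in controls and 23.1%, 23.9% and 9.04% in stressed animals, and the part of these shares in the difference was not tested. Within late cells the log2 change was -0.78 (SE 0.36, edgeR adjusted p = 1.00). In cluster 1, where Rec8 is low, it was -2.17 (SE 0.94, edgeR adjusted p = 1.00), at 4.05, 1.54 and 9.33 CPM in controls and 0.97 and 1.21 CPM in stressed replicates 2 and 3.

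**Figure D4:**
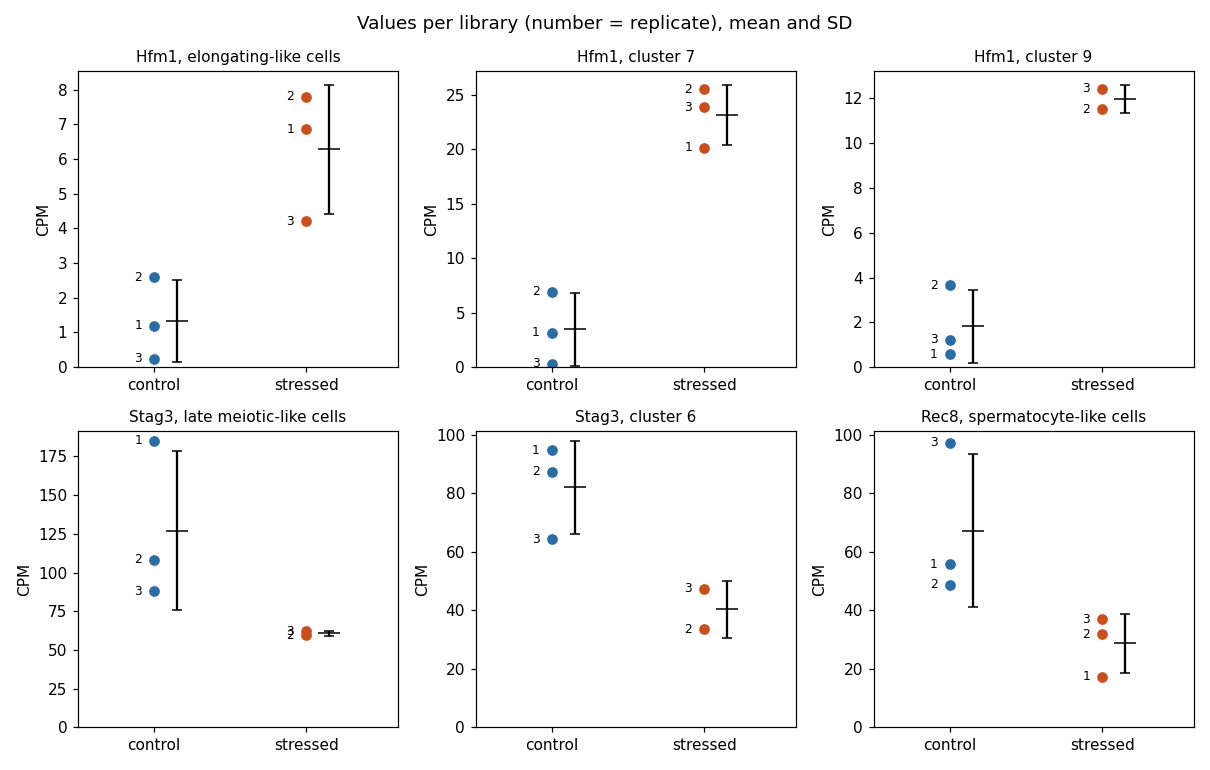
Level in CPM (vertical axes from 0) per library of control and stressed animals, with the replicate number beside each point and the mean and SD at its right; stressed replicate 1 is absent where it had fewer than 20 cells. Hfm1 lies higher in every stressed library in the 3 upper panels, and Stag3 and Rec8 lie lower in the 3 lower panels, while none passed the adjusted threshold.

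Smc1b overlapped between the groups in the 3 classes. In spermatocyte-like cells it stood at 391, 401 and 809 CPM in controls and 444, 562 and 586 CPM in stressed animals (log2 change 0.04, SE 0.35), and in round spermatid-like cells at 817, 846 and 1345 CPM against 832, 962 and 1203 CPM (log2 change 0.06, SE 0.26). Without TMM, which scales libraries to a common composition, both changes turned to just below 0. In pachytene-like cells, with 2 libraries a group, it was 313 and 238 CPM against 391 and 455 CPM (log2 change 0.74, SE 0.28, edgeR adjusted p = 0.77). The lack of overlap there holds only among libraries with at least 20 such cells. Of those left out, control replicate 3 lay above every stressed library, and stressed replicate 1 lay above control replicates 1 and 2. In cluster 4, late spermatids with little Smc1b, it was 26.5, 33.8 and 50.1 CPM against 131.6, 54.7 and 63.5 CPM, with no overlap (log2 change 1.10, SE 0.43, edgeR adjusted p = 1.00). Psmc3ip was 323, 282 and 528 CPM in controls and 297, 273 and 304 CPM in stressed animals in spermatocyte-like cells (log2 change -0.33, SE 0.31), and 281, 163 and 290 CPM against 154, 178 and 221 CPM in round spermatid-like cells (log2 change -0.33, SE 0.25). Its groups overlapped in both.

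Single cells set the estimates of the sparsest genes. Mnd1 in spermatocyte-like cells was 6.94, 14.2 and 3.26 CPM in controls and 57.4, 3.61 and 4.97 CPM in stressed animals, a log2 change of 1.39 (SE 1.00) that became -0.76 without stressed replicate 1. The high value came from 3 cells of that library, 1 of which held 92.5% of the counts. Msh5 likewise stood at 1.91, 4.28 and 0.54 CPM against 14.1, 3.13 and 0.09 CPM, a change of 1.26 (SE 1.38) that became -0.35 without stressed replicate 1. Mlh3 was 20.2, 40.2 and 4.90 CPM against 17.3, 28.5 and 8.64 CPM (log2 change -0.14, SE 0.69), and Msh4 1.75, 4.62 and 0 CPM against 1.08, 1.44 and 0.79 CPM (log2 change -0.79, SE 1.32). Dmc1 was tested in round spermatid-like cells, at 1.74, 3.97 and 0.22 CPM against 2.49, 0.92 and 1.28 CPM (log2 change -0.34, SE 0.87).

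Among 104 other genes of break formation and resection, strand invasion, crossover formation and cohesin regulation, none was called in the 4 fits either. In spermatocyte-like cells 91 were tested, 50 of them higher and 41 lower in stressed animals. Those with the smallest unadjusted p were Sgo2 (log2 change 0.75, SE 0.31), Smc4 (0.51, SE 0.21) and Swsap1 (3.53, SE 1.65) among the higher, and Mdc1 (-1.36, SE 0.58), Rad51c (-1.97, SE 1.09) and Hormad2 (-0.89, SE 0.57) among the lower. In round spermatid-like cells 39 of 85 were higher, led by Smc1a (0.59, SE 0.30), Cdk2 (1.10, SE 0.62) and Smc5 (0.36, SE 0.21), and 46 lower, led by Fancm (-1.68, SE 0.81), Prr19 (-0.61, SE 0.30) and Atm (-1.14, SE 0.57). In elongating spermatid-like cells 36 of 75 were higher, led by Stag2 (3.15, SE 1.19), Rad51ap2 (2.26, SE 1.02) and Smc4 (0.55, SE 0.28), and 39 lower, led by Hrob (-1.21, SE 0.56), Hormad2 (-1.48, SE 0.92) and Fancm (-0.95, SE 0.69). Stag2 rested on stressed replicate 1, at 12 CPM against 0.25 to 0.56 CPM in the other libraries. In whole libraries 50 of 98 were higher, led by Swsap1 (2.99, SE 1.10) and Stag2 (1.28, SE 0.75), and 48 lower, led by Fancm (-1.29, SE 0.71), Hormad2 (-0.86, SE 0.53) and Top3a (-1.32, SE 0.86). The median log2 change of the lists together was 0.09, -0.01, -0.03 and 0.04, against 0.00, -0.01, -0.01 and -0.01 over all genes tested.

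Over whole libraries Stag3 stood at 57.6, 29.9 and 28.3 CPM in controls and 18.2, 15.0 and 25.3 CPM in stressed animals, with no overlap (log2 change -0.78, SE 0.32, unadjusted p = 0.0330, edgeR adjusted p = 1.00), and -0.52 without control replicate 1. In such a sum, fewer cells of a stage and less RNA per cell cannot be told apart. The number of spermatocyte-like cells was 465, 178 and 112 in controls and 26, 230 and 365 in stressed animals. Hfm1 over whole libraries was 1.92, 2.84 and 0.48 CPM against 2.98, 5.94 and 2.28 CPM (log2 change 1.35, SE 0.66, edgeR adjusted p = 1.00), with overlap.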

How the data were processed

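Single-cell libraries had been made with the Singleron GEXSCOPE kit from dissociated testis and sequenced on an Illumina NovaSeq, per the labels' protocols; no source used here gives the aligner, counter, build or cell filter. Each library has a deposited matrix of raw counts and a deposited natural log matrix scaled per cell, which was checked against the counts and not used in tests. The members and all gene lists were chosen with earlier results of these data known.

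All 11744 cells were clustered (scanpy for Scrublet, scikit-learn, leidenalg; 1964 variable genes, 30 components, 15 neighbours, resolution 1), with the listed genes kept out; 25 had been among the variable genes. Clusters were named from marker lists. Scrublet called 72 cells doublets (0.613%), which stayed in. The spermatocyte-like cells were clustered again at resolution 0.6. Counts were summed per library and class with at least 20 cells, and tested in edgeR 4.0.16 (TMM, filterByExpr, robust quasi-likelihood) at an adjusted p of 0.05; the test was checked on simulated counts. An exact permutation test of 3 against 3 cannot give a p below 0.1, so none is reported. Stage levels carry no test. CPM is the count per 1000000 counts of the summed cells.

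Text names all 10 genes, and per class the 3 other pathway genes of smallest p in each direction, and the 5 genes of most similar profile per role, of which identifiers without a symbol are not printed. Some results are not reported here. The other pathway genes named by stage and the genes beside the members were chosen after their values were seen. Alternatives were DESeq2 1.42.0, no TMM, no filter, a replicate block, each library left out, and 4 other cell groupings. Of 119 pathway genes written down, 104 are listed. Same-group libraries differed beyond sampling noise (chi-square per degree of freedom at least 162.9).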

Additional observations from a re-analysis of the deposited data

Results flagged for a closer look

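Smc1b and Hfm1 had counts in the cluster that no class or comparison used. Its 193 cells were led by Apoe, Fos and Cd74, with elongating spermatid markers at 155400 CPM. There, in the 163 cells of stressed replicate 1, Smc1b stood at 69.3 CPM, against 19.2, 29.8 and 33.0 CPM in the 8, 10 and 2 such cells of control replicates 1 to 3, and Hfm1 at 0.832 CPM, from 1 cell, against 0 in the controls. Both levels of stressed replicate 1 lay within the range of the elongating spermatid-like clusters. Means of Smc1b there ran from 31.7 CPM in cluster 1 to 390 CPM in cluster 7. Those of Hfm1 ran from 0.15 CPM in cluster 4 to 13.3 CPM in cluster 7. Of the 10 genes, 5 had no count in any of the 193 unnamed cells. A count of 0 is compatible with up to 1.55% of them having one.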

How the results depend on the processing

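No member passed the adjusted threshold under any alternative: over 526 refits of 45 combinations of gene and class the lowest adjusted p was 0.229, and 46 refits turned the direction. Hfm1 in elongating spermatid-like cells kept its direction in all 14 alternatives (log2 change 1.72 to 3.12, adjusted p 0.734 to 1.00), Stag3 in spermatocyte-like cells likewise (-0.98 to -0.35, adjusted p 0.943 to 1.00) and Rec8 there (-1.42 to -0.68, adjusted p 0.943 to 1.00). With DESeq2, 3 genes were called in spermatocyte-like, 9 in round spermatid-like cells and 4 in whole libraries; with no filter, 2 in spermatocyte-like cells and 2 in whole libraries; without TMM, 0 in elongating spermatid-like cells, against 0, 2, 1 and 1 in the main fits. Leaving out each library in turn gave 0 to 5 called genes in round spermatid-like cells, 0 to 1 in elongating spermatid-like cells and 0 to 3 in whole libraries. The round calls were 0 without control replicate 1 or stressed replicate 2 and 5 without control replicate 2; the elongating call was lost without any control replicate or stressed replicate 2 or 3; the whole-library calls were 0 without control replicate 1 or 3 or stressed replicate 2 and 3 without stressed replicate 1. With 1 library left in a pachytene-like arm or the late stressed arm, that library is assumed to vary like the others.

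Without TMM, which moved the median of all genes in whole libraries to -0.19, Smc1b turned to -0.0014 in spermatocyte-like and -0.0043 in round spermatid-like cells, and Psmc3ip to -0.11 in pachytene-like cells (-0.023 with no filter). Mlh3 in spermatocyte-like cells turned to 0.70 at resolution 0.6, and Rec8 in elongating spermatid-like cells to -0.43 with the listed genes left in the clustering. The replicate numbers did not pair the samples (correlations of same-numbered libraries -0.0029, 0.042 and 0.279 in spermatocyte-like cells). With a replicate block, Mlh3 and Msh4 in spermatocyte-like cells turned to 0.094 and 0.053, and Dmc1 in round spermatid-like cells and whole libraries to 0.38 and 0.038; the late meiotic-like fit called 9 genes in place of 0, none of them a member.

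With each library left out, the log2 changes that turned in at least 1 case ranged as follows. In spermatocyte-like cells Msh5 ranged from -0.35 to 2.002, Mlh3 from -0.68 to 0.58, Msh4 from -1.34 to 0.35, Psmc3ip from -0.55 to 0.080, Mnd1 from -0.76 to 1.94 and Smc1b from -0.18 to 0.57. In round spermatid-like cells Mlh3 ranged from -0.22 to 0.64, Dmc1 from -0.88 to 0.73 and Smc1b from -0.11 to 0.39. In elongating spermatid-like cells Mlh3 ranged from -0.82 to 0.034, Rec8 from -0.66 to 0.52 and Psmc3ip from -0.42 to 0.13. In whole libraries Msh5 ranged from -0.38 to 0.78, Mlh3 from -0.69 to 0.0096, Msh4 from -0.83 to 0.066, Dmc1 from -0.52 to 0.54, Mnd1 from -0.58 to 0.97 and Smc1b from -0.41 to 0.45. In pachytene-like cells Stag3 ranged from -0.72 to 0.019, Mlh3 from -0.61 to 0.83 and Psmc3ip from -0.26 to 0.40, and in late cells Mlh3 from -0.10 to 1.84, Psmc3ip from -0.40 to 0.074 and Mnd1 from -0.25 to 1.24. Of 150 levels recomputed, 3 moved beyond 1 SD between libraries, and of 30 thinned shares of cells, 12 did. Few counts limit Dmc1, Msh4 and Msh5, and 26 spermatocyte-like cells limit stressed replicate 1.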
